A study of Rattus norvegicus with 46 samples.

Results

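The supraspinatus tendon of rats, cut from its bone with the subacromial bursa left in place, was compared between 14 and 3 days after the operation. The comparison takes 12 of the 46 RNA-seq libraries of the study, the 6 labelled as day 14 tendon with intact bursa and the 6 labelled as day 3 tendon with intact bursa, chosen by these labels alone. All 12 tendons had been detached by tenotomy, which is the cutting of a tendon, and in all 12 the bursa was spared. The same study also holds 6 day 14 and 6 day 3 tendons from shoulders whose bursa was removed at tenotomy, 6 day 14 and 6 day 3 injured bursas, and 5 control tendons and 5 control bursas from animals that were not operated on. Strain, sex and age are not given in the labels used here, and no agent or altered gene is named. The labels do not say which libraries come from the same rat, so p-values measure the spread between libraries of a group, and the day 14 and day 3 tissues were taken from different animals. The model is a fresh, surgical tear in a small animal, and each library is a mix of all cells in the piece of tissue collected.

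The supraspinatus tendon joins a shoulder muscle to the head of the humerus and is the tendon most often torn in the rotator cuff, and the bursa is a thin, lubricated sac that lies on top of it. A cut tendon is known to pass through an early stage, in which blood cells and macrophages enter and local cells divide, and a later stage, in which fibroblasts lay down collagen and other matrix. Cells of the tendon lineage are marked by the transcription factors Scx and Mkx and by the membrane protein tenomodulin, encoded by Tnmd.

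The day 14 libraries held 14152211 to 22499130 counts and the day 3 libraries 13490330 to 18918541. Reads of mitochondrially encoded genes took 8.89% ± 2.06 of the counts at day 14, 12.1% ± 2.17 at day 3 and 30.9% ± 5.62 in control tendons (SD, n = 6, 6 and 5). The 9 measured markers of adult skeletal muscle summed to 2094 to 8749 counts-per-million (CPM) in day 14 tendons and 2478 to 7670 CPM in day 3 tendons, ranges that overlap. In control tendons the sum was 39024 to 64246 CPM, so control levels are given below as a description only. CPM values here are scaled between libraries but not by transcript length, so they compare libraries for 1 gene and not genes with each other. The tendon markers Tnmd and Scx were set against the bursas of the same study to check the label, on CPM scaled over all 46 libraries. Tnmd lay at 1239 to 2233 CPM in day 14 tendons and 8.02 to 136 CPM in day 14 bursas, and at 55.7 to 205 CPM in day 3 tendons and 4.36 to 22.1 CPM in day 3 bursas. Scx lay at 57.8 to 83.6 CPM in day 14 tendons and 1.04 to 12.5 CPM in day 14 bursas, and at 13.4 to 36.7 CPM in day 3 tendons and 1.02 to 11.6 CPM in day 3 bursas, so tendon and bursa did not overlap in either gene on either day. In a principal component analysis of the 2000 most variable features the first component held 31.2% of the variance, and the 6 day 14 libraries stood on one side of it and the 6 day 3 libraries on the other.

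The comparison with day 3 found a broad difference. Of 16796 features tested with edgeR's quasi-likelihood test, 3541 were higher at day 14 (21.1%) and 3615 were lower (21.5%) at a Benjamini-Hochberg adjusted p under 0.05, and the median log2 fold change over all features was -0.0103. A call alone is therefore common, and each gene list below is read against these shares. Of the called features 270 were at least 4-fold higher and 226 at least 4-fold lower. For 2105 of the higher and 2218 of the lower calls, the 6 libraries of one day did not overlap with the 6 of the other. Over all features tested the share without overlap was 26.3%, so such separation is common too. In the authors' deposited table of the same comparison 3669 genes were higher and 3610 lower at day 14 at an adjusted p under 0.05. In the sentences below, 3 values for a group are its lowest, median and highest library in CPM, a log2 fold change is day 14 over day 3 with its standard error, and "rose", "fell", "higher" and "lower" are said of day 14 relative to day 3.

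The named genes with the greatest rise were mostly secreted proteins and parts of the extracellular matrix. Pamr1, a secreted protein with a peptidase-like domain, had 364, 416 and 586 CPM in day 14 tendons and 2.1, 5.64 and 13.4 CPM in day 3 tendons, a log2 fold change of 6.11 ± 0.35 (adjusted p = 1.6e-12). Chst5, a sulfotransferase that acts on sugar chains, had 23.7, 31.3 and 39.5 CPM in day 14 tendons and 0.41, 0.721 and 1.24 CPM in day 3 tendons, a log2 fold change of 5.39 ± 0.27. Col6a6, a chain of collagen VI, had 46.6, 59.7 and 75.4 CPM in day 14 tendons and 0.463, 1.25 and 4.27 CPM in day 3 tendons, a log2 fold change of 4.99 ± 0.36. As the rule for naming these genes asked, the libraries of the 2 days did not overlap in any of them. Tnmd, the tenomodulin of tendon cells, had 1222, 1405 and 2203 CPM in day 14 tendons and 54.9, 91.8 and 203 CPM in day 3 tendons, a log2 fold change of 3.79 ± 0.29 (adjusted p = 9.3e-11), while its control tendons lay at 159 to 439 CPM. Each day 14 library thus stood above each control library for Tnmd, and the lowest day 3 libraries stood below the lowest control. Col11a1, a minor fibrillar collagen that helps to set fibril width, had 919.8, 1168 and 1363 CPM in day 14 tendons and 51.4, 117 and 211 CPM in day 3 tendons, a log2 fold change of 3.17 ± 0.28. Wnt16, a secreted Wnt ligand, had 28.4, 38.3 and 78.6 CPM in day 14 tendons and 1.65, 2.92 and 5.59 CPM in day 3 tendons, a log2 fold change of 3.82 ± 0.36. The other rising genes among the 15 by this rule were Cpne4, a calcium-dependent phospholipid-binding protein, Ptx4 of the pentraxin family, the cartilage intermediate layer protein gene Cilp2, Wfdc1, the matrilin gene Matn4, Lrrn1, LOC100911486, Fam180a and Fbln7, a fibulin. Their log2 fold changes ran from 3.04 for Fbln7 to 4.50 for Cpne4.

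The named genes with the greatest fall were led by Fcnb, ficolin-B, a lectin of the complement system made by myeloid cells in rodents. Fcnb had 0.425, 0.655 and 1.38 CPM in day 14 tendons and 8.47, 16.8 and 46.3 CPM in day 3 tendons, a log2 fold change of -4.72 ± 0.54 (adjusted p = 8.0e-08). Ccl7, a chemokine that attracts monocytes, had 6.09, 8.13 and 10.4 CPM in day 14 tendons and 34.8, 76.6 and 129.8 CPM in day 3 tendons, a log2 fold change of -3.26 ± 0.33. All 6 day 3 libraries lay above all day 14 libraries in both genes, and the day 14 libraries of Ccl7 overlapped with control tendons, which lay at 1.72 to 6.52 CPM. The zinc-binding metallothioneins Mt1 and Mt2A fell, with log2 fold changes of -3.07 ± 0.25 for Mt1 and -3.12 ± 0.32 for Mt2A. These genes are near copies of each other, so reads could be split between them. Ptx3, a pentraxin of the acute response, had 3.76, 7.75 and 9.12 CPM in day 14 tendons and 39.8, 46.8 and 122 CPM in day 3 tendons, a log2 fold change of -3.21 ± 0.36. Myh9, a non-muscle myosin heavy chain, is uncertain, because the deposited tables also list Myh9l1, a symbol the RefSeq gene table gives as another name for it, and its log2 fold change was -2.76 ± 0.57. Csf3r, the receptor for the neutrophil growth factor G-CSF, fell, and so did Hmox1, which breaks down haem. Rrad, Cyp4b1, Plk1, Ccl2, Sfrp2, Chi3l1 and Myog, the muscle transcription factor myogenin, made up the rest of the 15, with log2 fold changes from -2.50 for Cyp4b1 to -2.35 for Myog.

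**Figure D1:**
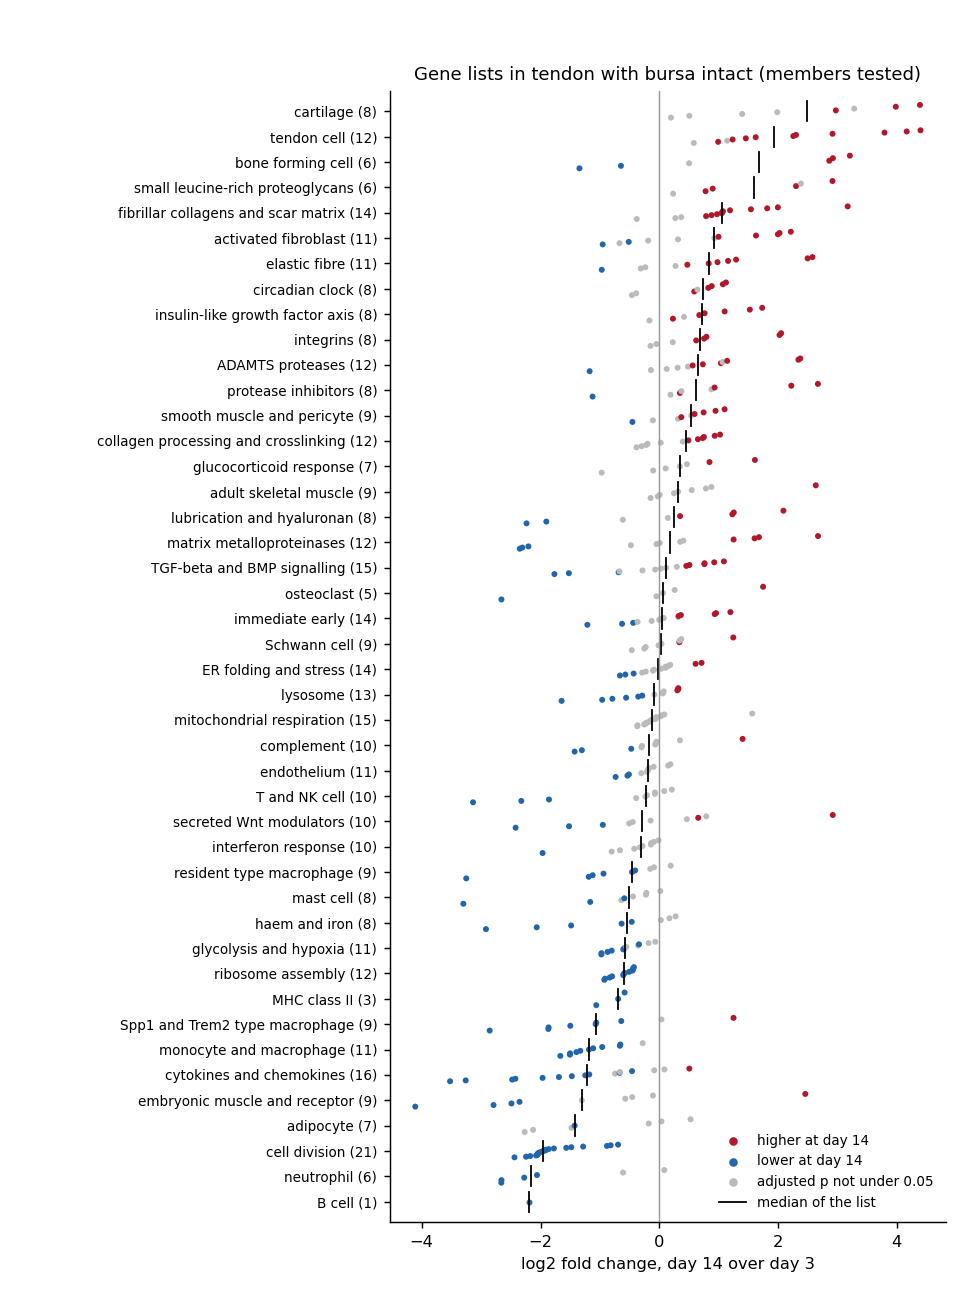
Log2 fold change of each measured member of 44 gene lists, day 14 over day 3, in tendons with intact bursa; each point is 1 gene, red where it was higher and blue where it was lower at an adjusted p under 0.05, and the black bar is the median of the list. All 21 cell division and all 12 ribosome assembly genes lie left of 0, and all 12 tendon cell genes lie right of it.

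Genes of cell division were lower at day 14 without exception. All 21 measured members of a list of 25 cell division genes fell, with a median log2 fold change of -1.96, against -0.0103 over all features and a background of 21.5% called lower. The members include enzymes of DNA synthesis, kinases of mitosis and motor proteins of the spindle. In these bulk libraries fewer dividing cells and less RNA per cell cannot be told apart. The 250 bases before the start of 4 members are printed here because the list moved together and because CCAAT boxes, bound by the factor NF-Y, and TTTGAA elements are known in promoters of cell cycle genes. They are RefSeq sequences of the GRCr8 build, read 5′ to 3′ on the strand of the gene, with CCAAT and TTTGAA in capitals on either strand (ATTGG and TTCAAA on the other one). Mki67 lies at chr1:199952594-199952843 on the minus strand, Top2a at chr10:84473094-84473343 on the minus strand, Plk1 at chr1:186147408-186147657 on the plus strand and Cdc20 at chr5:137255800-137256049 on the minus strand.
Mki67: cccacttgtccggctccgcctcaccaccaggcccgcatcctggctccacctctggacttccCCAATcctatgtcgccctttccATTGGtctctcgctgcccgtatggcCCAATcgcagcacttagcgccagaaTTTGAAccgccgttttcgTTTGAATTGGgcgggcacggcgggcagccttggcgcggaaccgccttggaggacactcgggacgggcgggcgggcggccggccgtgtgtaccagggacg
Top2a: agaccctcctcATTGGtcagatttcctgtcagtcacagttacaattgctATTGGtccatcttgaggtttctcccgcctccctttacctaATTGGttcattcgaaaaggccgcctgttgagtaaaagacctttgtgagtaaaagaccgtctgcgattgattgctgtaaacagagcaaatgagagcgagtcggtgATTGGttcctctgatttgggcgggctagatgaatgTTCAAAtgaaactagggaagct
Plk1: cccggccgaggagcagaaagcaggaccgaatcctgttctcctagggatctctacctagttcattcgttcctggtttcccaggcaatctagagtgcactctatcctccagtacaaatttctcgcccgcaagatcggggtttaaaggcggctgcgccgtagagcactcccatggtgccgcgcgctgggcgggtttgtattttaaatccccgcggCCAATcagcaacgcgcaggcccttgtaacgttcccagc
Cdc20: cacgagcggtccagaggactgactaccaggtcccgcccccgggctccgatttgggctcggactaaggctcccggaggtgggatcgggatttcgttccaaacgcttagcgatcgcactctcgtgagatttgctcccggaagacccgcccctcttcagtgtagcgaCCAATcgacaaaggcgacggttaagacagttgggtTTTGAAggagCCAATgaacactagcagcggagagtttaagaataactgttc
The Mki67 window holds 4 CCAAT boxes and 2 TTTGAA elements, of which 1 pair overlaps, the Top2a window 4 and 1, the Cdc20 window 2 and 1, and the Plk1 window 1 CCAAT box.

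Of the 25 list members, 21 had a promoter in the RefSeq table, and 16 of these (76.2%) held CCAAT on either strand in the 250 bases, against 34.3% of all 27457 promoters of that length. TTTGAA was found in 7 of the 21 (33.3%), against 16.0% of all, and both motifs in 6 (28.6%), against 5.76% of all. GCGGGAA, a form of the E2F site, was found in 1 (4.76%), against 3.58% of all. A match describes letters in a window and is not evidence of binding.

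Mki67, the proliferation antigen, had 36.7, 44.9 and 47.2 CPM in day 14 tendons and 149, 167 and 210.0 CPM in day 3 tendons, a log2 fold change of -2.01 ± 0.15 (adjusted p = 5.6e-11). Top2a, a topoisomerase that untangles DNA before mitosis, had 20.2, 25.7 and 28.7 CPM in day 14 tendons and 81.4, 109 and 122 CPM in day 3 tendons, a log2 fold change of -2.07 ± 0.23. Plk1, a kinase of mitosis, had 2.52, 4.11 and 5.67 CPM in day 14 tendons and 17.5, 23.2 and 28 CPM in day 3 tendons, a log2 fold change of -2.44 ± 0.22. Control tendons lay below both days in these 3 genes, with medians of 5.72 CPM for Mki67, 2.65 CPM for Top2a and 0.683 CPM for Plk1. Birc5, an inhibitor of apoptosis active at division, had a log2 fold change of -2.24 ± 0.20, and Cdc20, an activator of the anaphase-promoting complex, one of -2.05 ± 0.16. The smallest falls were those of the replication genes Pcna, the clamp that holds polymerase on DNA, and Mcm2, a subunit of the replicative helicase, with log2 fold changes of -0.69 ± 0.099 for Pcna and -0.82 ± 0.13 for Mcm2. The list summed to 249.8 to 331 CPM in day 14 tendons and 825 to 1098 CPM in day 3 tendons. Among the 4 members with no matched counts, the authors' deposited table gave log2 fold changes of -2.13 for Cdk1, -2.01 for Ccna2 and -1.80 for Aurkb.

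Ribosome assembly genes fell together as well, by less. All 12 measured members were lower at day 14, with a median log2 fold change of -0.59. Npm1, a nucleolar chaperone, had 265, 301 and 321 CPM in day 14 tendons and 493, 552 and 689 CPM in day 3 tendons, a log2 fold change of -0.93 ± 0.087. Fbl, a methyltransferase of ribosomal RNA, had 27.7, 33.3 and 39.6 CPM in day 14 tendons and 56.7, 59.4 and 61.4 CPM in day 3 tendons, a log2 fold change of -0.83 ± 0.099, and Ncl, nucleolin, had one of -0.58 ± 0.076. The day 14 level of Npm1 overlapped with control tendons, which lay at 258 to 309 CPM. In the authors' deposited table the growth regulator Myc had a log2 fold change of -1.34.

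Of 11 measured genes of glycolysis and the hypoxia response, 7 fell, none rose and 4 did not pass the test. Eno1, the glycolytic enolase, had 228, 282 and 338 CPM in day 14 tendons and 506, 526 and 634 CPM in day 3 tendons, a log2 fold change of -0.97 ± 0.12. Hk2, a hexokinase, had 37.2, 43.2 and 53.1 CPM in day 14 tendons and 79.9, 85.8 and 91.9 CPM in day 3 tendons, a log2 fold change of -0.98 ± 0.13. Slc2a1, a glucose transporter, fell with a log2 fold change of -0.80 ± 0.23, while Ca9, a carbonic anhydrase induced by low oxygen, had -0.36 ± 0.37 and an adjusted p of 0.475.

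Inflammatory genes were mostly lower at day 14. Of 16 measured cytokine and chemokine genes 11 fell, 1 rose and 4 did not pass the test, with a median log2 fold change of -1.21. Il6, an inflammatory cytokine, had 0.171, 0.324 and 0.827 CPM in day 14 tendons and 1.62, 4.93 and 8.85 CPM in day 3 tendons, a log2 fold change of -3.52 ± 0.51 (adjusted p = 3.2e-06). Ccl2, the main attractant of monocytes, had 14.2, 17.6 and 23.7 CPM in day 14 tendons and 45.3, 104 and 159.7 CPM in day 3 tendons, a log2 fold change of -2.42 ± 0.40, and day 14 and control tendons overlapped in it. Osm, the cytokine oncostatin M, fell with a log2 fold change of -2.48 ± 0.39. Ptgs2, the inducible cyclooxygenase, had 7.72, 27.6 and 33.2 CPM in day 14 tendons and 18.2, 34.3 and 75.5 CPM in day 3 tendons, and with an adjusted p of 0.265 it did not pass the test. The 1 gene that rose was Cxcl12, a chemokine that holds stem and immune cells in tissue, at 93.2, 111 and 122 CPM in day 14 tendons and 58, 77.6 and 97.3 CPM in day 3 tendons, a log2 fold change of 0.51 ± 0.17.

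Neutrophil and macrophage markers fell, and the neutrophil ones were low on both days. Of 6 measured neutrophil markers 4 fell, and their sum was 7.19 to 9.09 CPM in day 14 tendons and 22.7 to 59.7 CPM in day 3 tendons. Csf3r had 1.86, 3.17 and 4.32 CPM in day 14 tendons and 13.6, 18 and 27.8 CPM in day 3 tendons, a log2 fold change of -2.66 ± 0.22, without overlap. Lcn2, an iron-binding protein of neutrophils and of stressed epithelium, had a log2 fold change of -2.27 ± 0.27. S100a9, a protein abundant in neutrophils, was at 1.02 CPM at the day 14 median and 1.2 CPM at the day 3 median and did not pass the test (adjusted p = 0.280).

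Of 11 measured monocyte and macrophage markers 10 fell, and they summed to 1776 to 2618 CPM in day 14 tendons and 3734 to 6591 CPM in day 3 tendons. Cd68, a lysosomal protein of macrophages, had 42.5, 46.6 and 53.4 CPM in day 14 tendons and 121, 132 and 144 CPM in day 3 tendons, a log2 fold change of -1.50 ± 0.16 (adjusted p = 2.2e-08). Tyrobp, an adaptor of activating receptors on myeloid cells, had a log2 fold change of -1.50 ± 0.19, and Lyz2, the macrophage lysozyme, one of -1.33 ± 0.26. Adgre1, which encodes the mouse macrophage antigen F4/80, was the marker that did not pass, at 31.7, 34 and 43.3 CPM in day 14 tendons and 29.1, 43.5 and 52 CPM in day 3 tendons. In the authors' deposited table the unmatched markers Aif1, Itgam and Csf1r had log2 fold changes of -1.41 for Aif1, -1.35 for Itgam and -0.90 for Csf1r.

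Subsets of macrophage genes did not all move alike. Among 9 markers of resident-type macrophages 6 fell, and the fall ran from a log2 fold change of -3.25 ± 0.49 for Vsig4, a complement receptor, to -0.41 ± 0.14 for C1qb, a chain of complement C1q. Lyve1, a hyaluronan receptor of resident macrophages and lymphatic vessels, had 44.4, 54.6 and 89.6 CPM in day 14 tendons and 53.5, 62.7 and 84.5 CPM in day 3 tendons, and F13a1, a coagulation factor chain, had 60.2, 77.9 and 89.8 CPM in day 14 tendons and 50.6, 63.4 and 86.3 CPM in day 3 tendons, and neither passed the test. Among 9 markers of macrophages with Spp1 and Trem2, 7 fell, including Gpnmb, a membrane glycoprotein, with 195, 223 and 257 CPM in day 14 tendons and 739, 778 and 1006 CPM in day 3 tendons, a log2 fold change of -1.87 ± 0.18. Trem2, a lipid-sensing receptor, had a log2 fold change of -1.06 ± 0.16 and Arg1, arginase, one of -2.86 ± 0.54. Cd9, a tetraspanin that many cell types make, was the member that rose, with a log2 fold change of 1.25 ± 0.13. The part of macrophage number in the fall of other inflammatory genes was not tested.

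Lymphoid and mast cell markers were low, and some of them fell, read against 21.5% of all features called lower. Of 10 measured T and NK cell markers 3 fell, among them Cd8b with 0.252, 0.362 and 0.794 CPM in day 14 tendons and 2.63, 3.1 and 5.88 CPM in day 3 tendons and Cd8a with 0.533, 0.84 and 1.41 CPM in day 14 tendons and 2.64, 4.07 and 8.0 CPM in day 3 tendons, the chains of the CD8 co-receptor. The CD3 chain Cd3e had 0.953, 1.7 and 2.46 CPM in day 14 tendons and 0.875, 1.64 and 3.44 CPM in day 3 tendons and did not pass the test (adjusted p = 0.896). Cd79a, of the B cell receptor and the single B cell marker measured, had 0.0427, 0.102 and 0.23 CPM in day 14 tendons and 0.363, 0.617 and 0.866 CPM in day 3 tendons and fell, with a log2 fold change of -2.20 ± 0.59 (adjusted p = 0.00363), though it was too low to be tested in a fit of the 12 libraries alone. All 3 measured MHC class II genes fell, and RT1-Da, an alpha chain of class II, had 169, 214 and 309 CPM in day 14 tendons and 292, 321 and 546 CPM in day 3 tendons, a log2 fold change of -0.69 ± 0.22. The authors' deposited table gave -1.12 for RT1-DMb, -0.87 for Ciita, -0.67 for Cd74 and -0.61 for RT1-Db1. It gave -0.064 for RT1-Bb, with a DESeq2 adjusted p of 0.834. Among 8 mast cell markers 3 fell, led by Hdc, which makes histamine, with a log2 fold change of -3.30 ± 0.67, while Cpa3, the mast cell carboxypeptidase, had 1.79, 6.11 and 7.62 CPM in day 14 tendons and 1.78, 6.37 and 8.39 CPM in day 3 tendons. Of 10 measured interferon response genes the single call was Cxcl10, which is also counted among the chemokines. Without day 14 replicate 6, the highest day 14 library in 9 of the 10, 5 fell, and 2 fell without day 3 replicate 5. For unmatched members the authors' deposited table gave -0.74 for Bst2, with a DESeq2 adjusted p of 3.2e-05. It gave -0.21 for Mx2, -0.41 for Oas1a and 0.0014 for Ifi44, none with an adjusted p under 0.05. Of 10 measured complement genes 3 fell and 1 rose. C5ar1, the receptor for C5a, fell with a log2 fold change of -1.30 ± 0.17. Cd55, an inhibitor of complement on cell surfaces, rose with 1.40 ± 0.29. The unmatched members C3 and Cfb were lower in the authors' deposited table, with -1.68 for C3 and -0.77 for Cfb. Both had a DESeq2 adjusted p under 0.05.

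Most genes that handle haem and iron fell. Of 8 measured members 5 fell and none rose. Hmox1, haem oxygenase, had 64.2, 93 and 143 CPM in day 14 tendons and 416, 689.7 and 969 CPM in day 3 tendons, a log2 fold change of -2.92 ± 0.25 (adjusted p = 6.9e-10), against a control median of 7.37 CPM. Fth1, the ferritin heavy chain that stores iron, had 688, 846 and 938 CPM in day 14 tendons and 1872, 2137 and 2968 CPM in day 3 tendons, a log2 fold change of -1.48 ± 0.11. Hba-a1, a haemoglobin chain and a measure of blood in the tissue, had 45.9, 54.7 and 68.4 CPM in day 14 tendons and 32.8, 56.6 and 74.2 CPM in day 3 tendons, and the days overlapped (adjusted p = 0.948, not past the test). Lysosomal genes split, with 6 of 13 lower and 3 higher. Ctsz, a cathepsin, had 38.9, 44.8 and 49.5 CPM in day 14 tendons and 110.1, 138 and 169.8 CPM in day 3 tendons, a log2 fold change of -1.64 ± 0.12, and Ctsd, the aspartic protease of lysosomes, one of -0.79 ± 0.072, while the membrane protein Lamp1 rose with 0.32 ± 0.048.

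**Figure D2:**
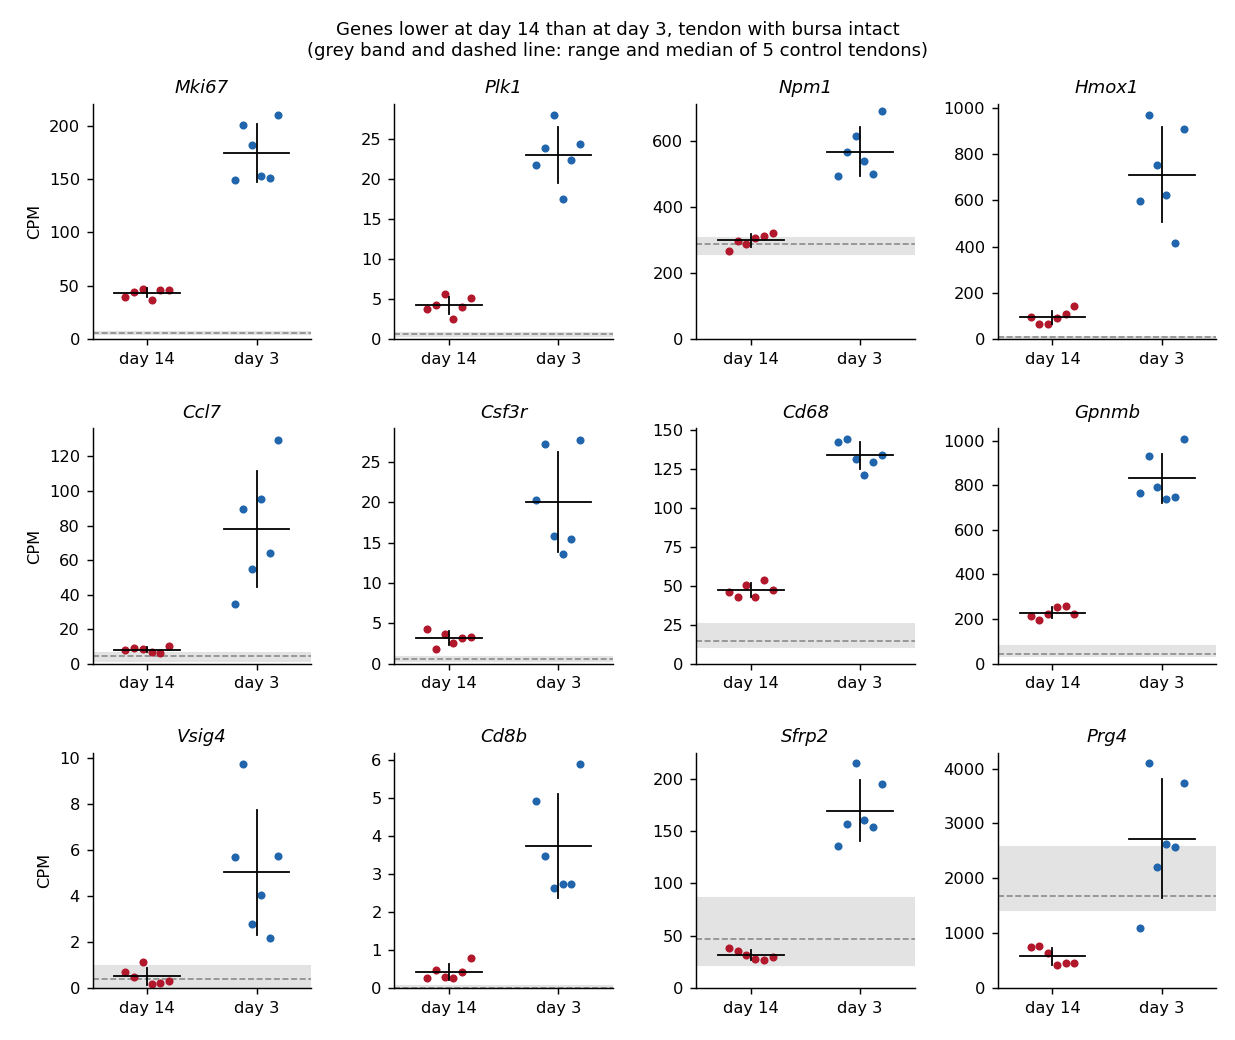
CPM per library of 12 genes in tendons with intact bursa at day 14 (6 libraries, left) and day 3 (6 libraries, right); points are libraries, horizontal bars are means and vertical lines are ± SD, with the range and median of 5 control tendons in grey. Every day 14 library lies below every day 3 library in each of the 12 genes.

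The tendon cell list rose. Of 12 measured members 10 were higher at day 14 and none lower, with a median log2 fold change of 1.94, against a background of 21.1% called higher. Scx, the transcription factor that specifies tendon, had 57.1, 69.7 and 83.1 CPM in day 14 tendons and 13.3, 24.6 and 36.3 CPM in day 3 tendons, a log2 fold change of 1.46 ± 0.22 (adjusted p = 7.3e-06), and 17.8 to 32.1 CPM in control tendons. Mkx, the other tendon transcription factor, had 4.03, 6.02 and 12.2 CPM in day 14 tendons and 1.31, 2.32 and 2.95 CPM in day 3 tendons, a log2 fold change of 1.62 ± 0.26, with a control median of 10.5 CPM. Fmod, fibromodulin, which binds collagen fibrils, had 1814, 2316 and 3253 CPM in day 14 tendons and 291, 382 and 783 CPM in day 3 tendons, a log2 fold change of 2.30 ± 0.23. Day 14 and control tendons overlapped in Fmod and Mkx, while the day 3 libraries lay below both. Kera, keratocan, a corneal and tendon proteoglycan, and Cilp2 showed the same order, with day 14 medians of 385 CPM for Kera and 399.9 CPM for Cilp2, and control medians of 421 and 423 CPM.

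The 2 members that did not pass the test were far below control tendons at both days. Chad, chondroadherin, a matrix protein of cartilage and tendon, had 4.39, 7.31 and 19.7 CPM in day 14 tendons and 2.05, 3.35 and 10.4 CPM in day 3 tendons and 403, 1198 and 1846 CPM in control tendons (adjusted p = 0.0758 for day 14 against day 3). Angptl7, an angiopoietin-like secreted protein, had 8.22, 10.7 and 38.3 CPM in day 14 tendons and 4.97, 9.43 and 26.7 CPM in day 3 tendons and 126, 296 and 451 CPM in control tendons (adjusted p = 0.339). Chad passed the test without day 14 replicate 3 (log2 fold change 1.30, adjusted p = 0.0494) and without day 3 replicate 4 (1.58, adjusted p = 0.0195). In the authors' deposited table Thbs4, a thrombospondin of tendon, had a log2 fold change of 0.72 and Comp, its relative in cartilage and tendon, one of 0.47 with an adjusted p of 0.189.

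Collagens and other scar matrix genes were higher at day 14. Of 14 measured members 11 rose and none fell, with a median log2 fold change of 1.06. Postn, periostin, which links collagen to cells in healing tissue, had 19866, 25414 and 30064 CPM in day 14 tendons and 4477, 6479 and 7611 CPM in day 3 tendons, a log2 fold change of 2.00 ± 0.24 (adjusted p = 1.6e-07), and no control library exceeded 387 CPM. Col12a1, a collagen on the fibril surface, had 4097, 5785 and 7155 CPM in day 14 tendons and 1425, 2003 and 2471 CPM in day 3 tendons, a log2 fold change of 1.54 ± 0.21. Col1a1, a chain of collagen I, the main collagen of tendon, had 32848, 42324 and 51395 CPM in day 14 tendons and 19328, 22783 and 31986 CPM in day 3 tendons, a log2 fold change of 0.79 ± 0.24. The days did not overlap in any of these genes. Col3a1, collagen III, which is plentiful in early scar, had 33673, 37282 and 47088 CPM in day 14 tendons and 23765, 28972 and 37097 CPM in day 3 tendons, a log2 fold change of 0.37 ± 0.16, and did not pass the test (adjusted p = 0.0712). DESeq2 called Col3a1 (adjusted p = 0.0381), and edgeR did so without day 3 replicate 5 (adjusted p = 0.0365). Tnc, tenascin-C, a matrix protein of injured tissue, had 1912, 3058 and 4993 CPM in day 14 tendons and 1950, 2918 and 3151 CPM in day 3 tendons, and with an adjusted p of 0.432 no difference was called. Both days lay above control tendons in Col3a1 and Tnc, whose control libraries ranged over 3252 to 4556 CPM for Col3a1 and 142 to 331 CPM for Tnc.

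Among 6 measured small leucine-rich proteoglycans, which regulate collagen fibrils, 4 rose. Besides Kera and Fmod these were Bgn, biglycan, with 4648, 5577 and 7697 CPM in day 14 tendons and 2684, 2813 and 3757 CPM in day 3 tendons, and Lum, lumican, with 5005, 5590 and 6713 CPM in day 14 tendons and 1859, 3448 and 4127 CPM in day 3 tendons. Dcn, decorin, had 2246, 2729 and 3009 CPM in day 14 tendons and 1128, 2399 and 2801 CPM in day 3 tendons and did not pass the test (adjusted p = 0.397). In the authors' deposited table Ogn, osteoglycin, had a log2 fold change of 3.68 and Aspn, asporin, one of 1.76.

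Of 12 enzymes that modify and crosslink collagen 6 rose and none fell. Loxl2, a lysyl oxidase that crosslinks collagen, had 457, 533 and 725 CPM in day 14 tendons and 252, 275 and 303 CPM in day 3 tendons, a log2 fold change of 1.02 ± 0.17. Bmp1, a protease that trims procollagen, had 258, 278 and 299 CPM in day 14 tendons and 146, 164 and 189 CPM in day 3 tendons, a log2 fold change of 0.75 ± 0.10. P4ha1 and P4ha2, prolyl hydroxylases that stabilise the collagen helix, had log2 fold changes of -0.20 ± 0.16 for P4ha1 and -0.30 ± 0.15 for P4ha2 and did not pass the test. Lox itself had a log2 fold change of -0.57 in the authors' deposited table, in the opposite direction to its relatives Loxl1, Loxl2 and Loxl3.

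Of 11 activated fibroblast markers 5 rose and 2 fell. Cthrc1, a secreted protein of fibroblasts in healing tissue, had 959.6, 1031 and 1193 CPM in day 14 tendons and 177, 217 and 295 CPM in day 3 tendons, a log2 fold change of 2.21 ± 0.18, and control tendons held 2.63 to 8.5 CPM. Lrrc15, a membrane protein of the same kind of cell, had 213, 285 and 334 CPM in day 14 tendons and 67, 85.9 and 135 CPM in day 3 tendons, a log2 fold change of 1.63 ± 0.21. Acta2, the smooth muscle actin of contractile fibroblasts and vessel walls, had 252, 302 and 415 CPM in day 14 tendons and 180.5, 263 and 296 CPM in day 3 tendons and did not pass the test. The members that fell were Ltbp2, a matrix protein of microfibrils, and Pdpn, podoplanin, a membrane glycoprotein, with log2 fold changes of -0.95 ± 0.21 for Ltbp2 and -0.51 ± 0.15 for Pdpn.

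Elastic fibre genes rose in 7 of 11 cases and fell in 1. Mfap2, a microfibril protein, had 71.7, 75.4 and 88.7 CPM in day 14 tendons and 8.26, 11.9 and 19.4 CPM in day 3 tendons, a log2 fold change of 2.58 ± 0.23. Fbn2, the fibrillin of developing tissue, had 99.6, 138 and 239.7 CPM in day 14 tendons and 16.1, 24.6 and 44.6 CPM in day 3 tendons, a log2 fold change of 2.50 ± 0.30, and Eln, elastin, had 204, 226 and 314 CPM in day 14 tendons and 51.8, 127 and 180.3 CPM in day 3 tendons, a log2 fold change of 0.98 ± 0.30. Fbln2, a fibulin, fell with a log2 fold change of -0.97 ± 0.14. Of 8 integrin genes 5 rose, among them the collagen-binding Itga11 with 2.02 ± 0.21 and Itga10 with 2.05 ± 0.21 on the log2 scale, and none fell.

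Among the matrix metalloproteinases (MMPs) some genes rose and others fell. Of 12 measured members 4 rose and 3 fell, beside 21.1% of all features called higher and 21.5% called lower. These counts are not far from those shares, so they do not set the family apart. Mmp14, an MMP anchored in the cell membrane, had 2147, 2331 and 2549 CPM in day 14 tendons and 578, 696 and 948 CPM in day 3 tendons, a log2 fold change of 1.68 ± 0.16. Mmp2, a gelatinase that Mmp14 activates, had 4190, 4972 and 5580 CPM in day 14 tendons and 1054, 1608 and 2213 CPM in day 3 tendons, a log2 fold change of 1.60 ± 0.17. Mmp11, stromelysin-3, and Mmp16, another membrane-anchored MMP, also rose. Mmp13, a collagenase, had 13.9, 25.8 and 35 CPM in day 14 tendons and 33.3, 79.8 and 306 CPM in day 3 tendons, a log2 fold change of -2.35 ± 0.41 (adjusted p = 4.1e-05), with 1 day 14 library above the lowest day 3 library. Mmp3, stromelysin-1, had 15.9, 31 and 52.9 CPM in day 14 tendons and 35.9, 141 and 369.9 CPM in day 3 tendons, a log2 fold change of -2.31 ± 0.51, and Mmp10, stromelysin-2, had -2.20 ± 0.54. Control tendons held at most 0.123 CPM of Mmp13.

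Inhibitors of these proteases moved in both directions too. Of 8 measured members 4 rose and 1 fell. Timp2, which binds MMPs, had 1954, 2178 and 2416 CPM in day 14 tendons and 414, 432 and 592 CPM in day 3 tendons, a log2 fold change of 2.22 ± 0.13, and Timp3, an inhibitor held in the matrix, had 282, 384 and 535 CPM in day 14 tendons and 52.1, 60.7 and 83 CPM in day 3 tendons, a log2 fold change of 2.67 ± 0.17. Timp1, a secreted inhibitor, had 149, 177 and 234 CPM in day 14 tendons and 278, 369 and 552 CPM in day 3 tendons, a log2 fold change of -1.12 ± 0.18. The days did not overlap in any of the 3. Of 12 ADAMTS proteases, which cleave proteoglycans and procollagens, 6 rose and 1 fell. Adamts12 rose with a log2 fold change of 1.04 ± 0.15, and Adamts4, an aggrecanase, fell with -1.17 ± 0.26.

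**Figure D3:**
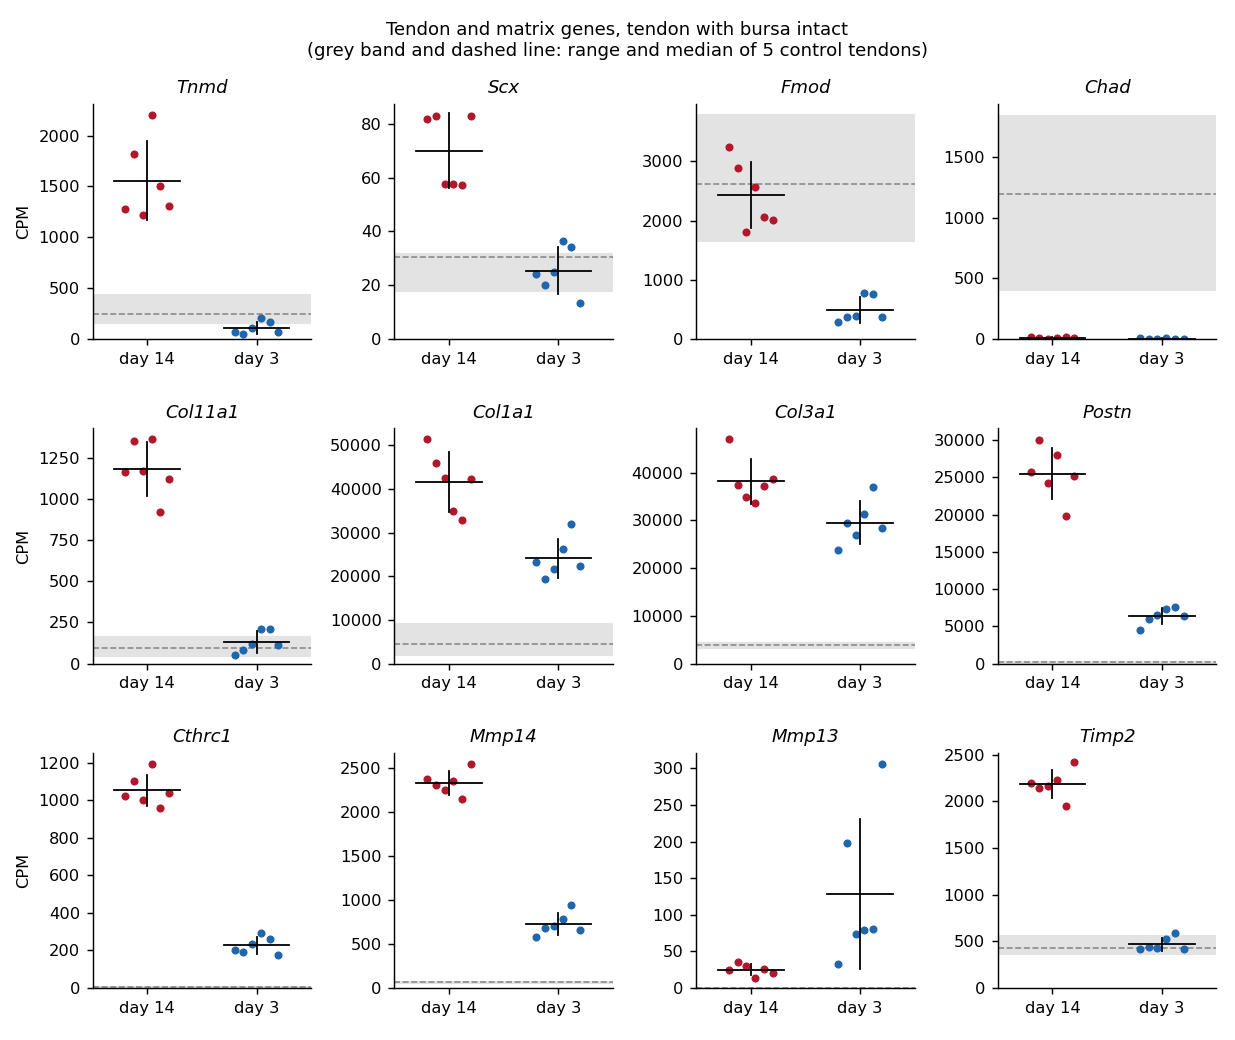
CPM per library of 12 tendon and matrix genes in tendons with intact bursa at day 14 (6 libraries, left) and day 3 (6 libraries, right); points are libraries, horizontal bars are means and vertical lines are ± SD, with the range and median of 5 control tendons in grey. Mmp13 is lower at day 14 while Mmp14 and Timp2 are higher, Col3a1 overlaps between the days, and Chad stays far below the grey band at both days.

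Some genes of cartilage and bone were higher at day 14. Of 8 measured cartilage genes 3 rose: the matrilins Matn3 and Matn4, which bridge matrix fibres, and Ucma, a small protein of cartilage. Matn3 had 6.02, 8.35 and 9.96 CPM in day 14 tendons and 0.273, 0.39 and 0.463 CPM in day 3 tendons, a log2 fold change of 4.39 ± 0.27. Col2a1, the main cartilage collagen, had 4.18, 8.36 and 48.5 CPM in day 14 tendons and 0.0661, 0.624 and 15.2 CPM in day 3 tendons and did not pass the test (adjusted p = 0.179), and Sox9, the cartilage transcription factor, had 8.15, 12.1 and 13.2 CPM in day 14 tendons and 4.76, 7.96 and 12.4 CPM in day 3 tendons with an adjusted p of 0.0639. Without day 3 replicate 4 both passed, with log2 fold changes of 3.51 for Col2a1 and 0.67 for Sox9, and the count of risen cartilage genes was 5; Sox9 also passed without day 14 replicate 5. Acan, aggrecan, had a log2 fold change of 2.60 in the authors' deposited table. Of 6 bone-forming markers 3 rose and 2 fell, or 1 without day 3 replicate 1. Sp7, osterix, a transcription factor of bone-forming cells, was scarce on both days and rose, with 0.315, 1.87 and 2.13 CPM in day 14 tendons and 0.0661, 0.192 and 0.36 CPM in day 3 tendons, while Runx2, another transcription factor of that lineage, had 11.6, 14.2 and 16.3 CPM in day 14 tendons and 19.7, 22.1 and 24.7 CPM in day 3 tendons, a log2 fold change of -0.65 ± 0.15. Alpl, the alkaline phosphatase of mineralising cells, had a log2 fold change of 4.52 in the authors' deposited table. Among 5 osteoclast genes Ctsk, a collagen-degrading cathepsin that fibroblasts make too, rose with 511, 539.8 and 587 CPM in day 14 tendons and 133, 159 and 192 CPM in day 3 tendons, a log2 fold change of 1.75 ± 0.15. Oscar, a receptor on osteoclasts and myeloid cells, fell, and Acp5, the tartrate-resistant phosphatase, did not pass the test (adjusted p = 0.187).

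Growth factor genes changed in part. Of 15 measured genes of TGF-beta and BMP signalling 6 rose and 3 fell, or 5 without day 3 replicate 1. Among the ligands Tgfb3 had 249.7, 256 and 294 CPM in day 14 tendons and 88, 123 and 178 CPM in day 3 tendons, a log2 fold change of 1.09 ± 0.13, while Tgfb1 had 77.8, 107 and 117 CPM in day 14 tendons and 98, 111 and 116 CPM in day 3 tendons and did not pass the test (adjusted p = 0.636). The receptors moved apart, with log2 fold changes of 0.76 ± 0.11 for Tgfbr2 and -0.68 ± 0.12 for Tgfbr1. Of 8 genes of the insulin-like growth factor axis 6 rose and none fell, and Igfbp5, a binding protein that holds the ligand, had 1445, 1998 and 2597 CPM in day 14 tendons and 476, 592 and 743 CPM in day 3 tendons, a log2 fold change of 1.73 ± 0.20. The ligand Igf1 had a log2 fold change of 0.84 in the authors' deposited table. Of 10 secreted Wnt modulators 2 rose and 3 fell, counts near the 21.1% of all features called higher and 21.5% called lower. Dkk3, of the Dickkopf family, had 658, 765 and 970.3 CPM in day 14 tendons and 76.9, 96.2 and 152 CPM in day 3 tendons, a log2 fold change of 2.92 ± 0.19. Sfrp2, which binds Wnt proteins, had 26.8, 30.3 and 38.6 CPM in day 14 tendons and 136, 158 and 215 CPM in day 3 tendons, a log2 fold change of -2.42 ± 0.23, and Sfrp1, its relative, had -1.52 ± 0.24.

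Lubrication and hyaluronan genes changed in both directions. Prg4, lubricin, which covers gliding surfaces and is made by bursal and synovial lining cells, had 414, 544 and 768 CPM in day 14 tendons and 1086, 2599 and 4101 CPM in day 3 tendons, a log2 fold change of -2.24 ± 0.28 (adjusted p = 3.8e-07). Has2, a hyaluronan synthase, had 18.6, 39.3 and 47.3 CPM in day 14 tendons and 71.4, 132 and 189 CPM in day 3 tendons, a log2 fold change of -1.90 ± 0.31. Cemip, which breaks hyaluronan down, had 122, 148 and 204 CPM in day 14 tendons and 26.9, 37.9 and 44.9 CPM in day 3 tendons, a log2 fold change of 2.09 ± 0.26. The days did not overlap in any of the 3. Of the 8 measured members of the list 4 rose and 2 fell.

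Markers of vessels, nerve and fat passed the test in part, read against 21.1% of all features called higher and 21.5% called lower. The counts for endothelial, Schwann cell and adipocyte markers are not far from these shares. Of 11 endothelial markers 3 fell and none rose, and they summed to 736 to 903 CPM in day 14 tendons and 843 to 1288 CPM in day 3 tendons. Kdr, the main VEGF receptor, had 39.5, 47.2 and 55.9 CPM in day 14 tendons and 48.4, 71.1 and 85 CPM in day 3 tendons, a log2 fold change of -0.54 ± 0.16, and Vwf, the von Willebrand factor, had 73.4, 78.2 and 89 CPM in day 14 tendons and 61.6, 109 and 121 CPM in day 3 tendons and did not pass the test. Of 9 smooth muscle and pericyte markers 5 rose and 1 fell, the first count being 3 without day 14 replicate 6 or day 3 replicate 1, 2, 3 or 6. Rgs5, a pericyte marker, had 251, 289 and 324 CPM in day 14 tendons and 98.1, 136 and 167 CPM in day 3 tendons, a log2 fold change of 1.10 ± 0.14. Of 9 Schwann cell markers 2 rose, S100b with 1.25 ± 0.19 and Pmp22 with 0.34 ± 0.12 on the log2 scale, but Sox10, which defines that lineage, was below 2 CPM in all 12 libraries. Without day 14 replicate 5, day 3 replicate 1 or day 3 replicate 3, only S100b passed. Of 7 measured adipocyte genes the single call was Cfd, which fell with a log2 fold change of -1.43 ± 0.47. Without day 3 replicate 1 its adjusted p was 0.0701, and 2 genes were called without day 3 replicate 2 or 6. The unmatched members were lower in the authors' deposited table, with -1.91 for Adipoq, -1.87 for Cidec and -2.45 for Retn. Each had a DESeq2 adjusted p under 0.05, so the count of measured genes understates the fall of this list.

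Adult skeletal muscle markers mostly did not pass the test, while 5 of 9 embryonic muscle and receptor genes did. Of 9 adult muscle markers 1 passed the test, Myl2, a myosin light chain of slow fibres, with 33.7, 109.6 and 127 CPM in day 14 tendons and 5.31, 11.2 and 30.9 CPM in day 3 tendons, a log2 fold change of 2.63 ± 0.60. Ckm, muscle creatine kinase, had 299.9, 1019 and 1233 CPM in day 14 tendons and 409, 1006 and 1220 CPM in day 3 tendons, a log2 fold change of -0.025 ± 0.46, and Acta1, skeletal actin, one of -0.15 ± 0.46. Of 9 genes of embryonic muscle and the acetylcholine receptor 4 fell and 1 rose. Myog had 1.48, 4.67 and 7.89 CPM in day 14 tendons and 13.8, 23.2 and 36.8 CPM in day 3 tendons, a log2 fold change of -2.35 ± 0.42, and Chrna1, a receptor subunit that rises in denervated muscle, had 0.567, 2.38 and 2.86 CPM in day 14 tendons and 8.98, 13 and 18.1 CPM in day 3 tendons, a log2 fold change of -2.79 ± 0.35. None of 15 genes of mitochondrial respiration was called by edgeR, and their median log2 fold change was -0.13. With the muscle level as a covariate 10 of the 15 respiration genes and 4 of the 9 adult muscle markers were lower at day 14. That covariate is the mean log2 CPM of the adult muscle markers themselves. The count of 4 among these markers therefore cannot be read as a change in muscle.

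Stress, clock and hormone response genes are given because they can respond to how and when tissue is taken. Of 14 immediate early genes 5 rose and 3 fell, the first count being 3 without day 14 replicate 1, 2 or 5 or day 3 replicate 1, 3 or 6. Fos, which rises within minutes of handling, had 20.4, 32.8 and 48.6 CPM in day 14 tendons and 21.9, 28.7 and 52 CPM in day 3 tendons (adjusted p = 0.999). Of 8 circadian clock genes 5 rose and none fell, and Nr1d1, a repressor of the clock, had 79.5, 98.6 and 142 CPM in day 14 tendons and 38, 47.2 and 61 CPM in day 3 tendons, a log2 fold change of 1.12 ± 0.18. Of 7 glucocorticoid response genes 2 rose, and Fkbp5, a stress hormone target, had 30.4, 53 and 118 CPM in day 14 tendons and 37.1, 50.2 and 74.5 CPM in day 3 tendons and did not pass the test. Of 14 genes of protein folding in the endoplasmic reticulum 2 rose and 3 fell, not above the shares of all features called higher and lower. The labels used here give no hour of collection, so the part of time of day in these values was not tested.

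Whether the change with time depended on the bursa was asked by setting the day effect in tendons with intact bursa against that in tendons with the bursa removed. In the bursa removed tendons 3716 features were higher (22.1%) and 3751 lower (22.3%) at day 14. Of 7156 calls with intact bursa 6082 were also called with the bursa removed, all in the same direction, which is 85.0% of the intact calls and 81.5% of the removed calls. Across 16796 features the log2 fold changes had a Pearson correlation of 0.803. Genes are not independent replicates, and although the study's design text says that tendons of both sides were taken, its labels do not say which libraries share a rat.

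By edgeR's test of the difference itself, 0 features had a greater and 0 a smaller change with intact than with removed bursa. These are 0.0% and 0.0% of 16796, with a lowest adjusted p of 1.00. An unadjusted p under 0.05 was found for 253 features (1.51%), fewer than chance alone would give. DESeq2 called 0 as well, with 269 unadjusted. A difference that misses the threshold does not show that the effects are equal. For Tnmd the log2 fold change was 3.79 ± 0.29 with intact and 4.09 ± 0.29 with removed bursa, a difference of -0.30 ± 0.37 (SE). Tnmd had 1213, 1419 and 1753 CPM in day 14 and 63.4, 88.8 and 116 CPM in day 3 tendons with the bursa removed. Pamr1 had log2 fold changes of 6.11 ± 0.35 with intact and 7.00 ± 0.38 with removed bursa, and its difference of -0.89 ± 0.43 did not pass the test. Mki67 had -2.01 ± 0.15 with intact and -1.73 ± 0.15 with removed bursa. By list, cell division fell in 21 of 21 cases in both, tendon cell genes rose in 10 of 12 cases in both, and fibrillar collagen and scar matrix genes rose in 11 of 14 cases with intact and 13 of 14 with removed bursa. Interferon response genes fell in 1 of 10 cases with intact and 5 of 10 with removed bursa, and none of these differences passed the test.

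**Figure D4:**
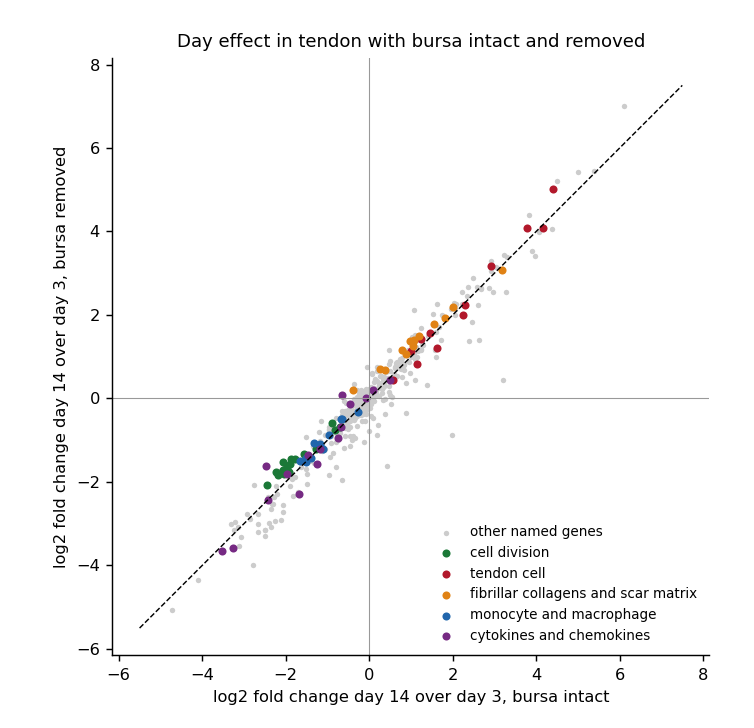
Log2 fold change of day 14 over day 3 with the bursa intact (x axis) and with the bursa removed (y axis), 1 point for each of 451 named and listed genes, with 5 lists in colour and the dashed line marking equal change. Cell division genes and most cytokine and macrophage genes lie low on both axes and most tendon cell genes high on both, along the dashed line.

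Against the injured bursa, the tissue lying on the tendon, the change with time differed for many genes. In bursas with tenotomy 2515 of 17680 features were higher (14.2%) and 2420 lower (13.7%) at day 14. The test of the difference, intact tendon minus bursa, called 1543 features more positive in tendon (8.73%) and 1392 more negative (7.87%). Fitted on the 24 libraries of this comparison alone, the test called 2453 and 1636 features without a replicate block, and 2341 and 1588 with the replicate number within each day as a block. In the fit of all 46 libraries, 2625 calls were shared between 6472 tendon calls and 4935 bursa calls. Of the shared calls 2371 had the same and 254 the opposite direction. Those with the same direction make up 36.6% of the tendon calls and 48.0% of the bursa calls.

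Many matrix genes changed otherwise in tendon than in bursa. Of the 14 fibrillar collagen and scar matrix genes 11 rose in tendon, none rose and 2 fell in bursa, and for 9 the difference itself passed the test, a count of 8 to 10 when single libraries were left out. With the muscle level as a covariate that count was 4. Col12a1 had a log2 fold change of 1.54 in tendon and -1.23 ± 0.38 in bursa, where it averaged 449.8 ± 398 CPM at day 14 and 1055 ± 499 CPM at day 3 (SD, n = 6 each). The difference was 2.77 ± 0.54 by edgeR (adjusted p = 4.4e-04). Postn had 1.99 in tendon and 0.030 ± 0.280 in bursa, a difference of 1.96 ± 0.40 (adjusted p = 6.7e-04). Cthrc1 had 2.21 in tendon and 0.030 ± 0.306 in bursa, a difference of 2.18 ± 0.44. For Col1a1 the difference of 1.14 ± 0.53 did not pass the test (adjusted p = 0.14). Timp2 and Mmp14 rose more in tendon than in bursa too, with differences of 1.62 ± 0.30 for Timp2 and 1.68 ± 0.35 for Mmp14.

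Cell division genes fell in both tissues, 21 of 21 in tendon and 20 of 21 in bursa, with medians of -1.96 and -2.74. The difference passed the test for 5 members that were more positive in tendon and for 1 that was more negative. In fits of the 24 libraries the first of these counts was 11 without and 8 with the replicate block. Tendon cell genes rose in 10 of 12 cases in tendon and 6 of 12 in bursa, and for 2, Scx and Fibin, the difference passed the test. Of 10 interferon response genes none rose in tendon and all 10 rose in bursa, and 8 differences passed the test. That count was 1 without 1 day 14 bursa library, replicate 6, and 3 with the muscle level as a covariate. In fits of the 24 libraries it was 4 without and 3 with the replicate block. Ribosome assembly genes fell in 12 of 12 cases in tendon and 4 of 12 in bursa, with 9 differences past the test and 5 without that library.

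Among 15 genes named for the size of this difference, 4 rose in tendon and fell in bursa. Prss35, a serine protease-like protein, had a log2 fold change of 2.04 in tendon and -2.20 in bursa, a difference of 4.24 ± 0.44 (adjusted p = 3.4e-08). Plekhg4 had 1.94 in tendon and -1.99 in bursa. Podnl1, a small leucine-rich proteoglycan, had 2.60 in tendon and -1.13 in bursa, and Cemip had 2.08 in tendon and -1.54 in bursa. Chst5, Pamr1 and Cpne4 rose in both, with differences of 3.28 to 3.59. Mgst1, a membrane-bound glutathione transferase, had -1.92 in tendon and 0.74 in bursa, a difference of -2.65 ± 0.34, and Rbp4 and Plac8 also had differences below 0, of -2.35 for Rbp4 and -2.34 for Plac8. Myoc, myocilin, had -0.33 in tendon and 2.58 in bursa. Irf7, a transcription factor of the interferon response, had -0.34 in tendon and 3.27 in bursa, and its difference of -3.61 was -2.30 with the replicate block and -1.52 without day 14 bursa replicate 6 (adjusted p = 0.0384). Fcnb fell by 4.74 in tendon and had -0.82 in bursa, but its difference of -3.92 was -2.01 without day 14 bursa replicate 6 (adjusted p = 0.0715). The differences for Actc1, cardiac actin, and Myh9 also lost their call when single libraries were left out. Actc1 had 3.78 with all libraries, 0.86 with the replicate block (adjusted p = 0.735) and 2.17 without day 3 bursa replicate 1 (adjusted p = 0.232). Myh9 had -3.04 with all libraries and -2.41 without day 14 bursa replicate 1 (adjusted p = 0.0814).

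**Figure D5:**
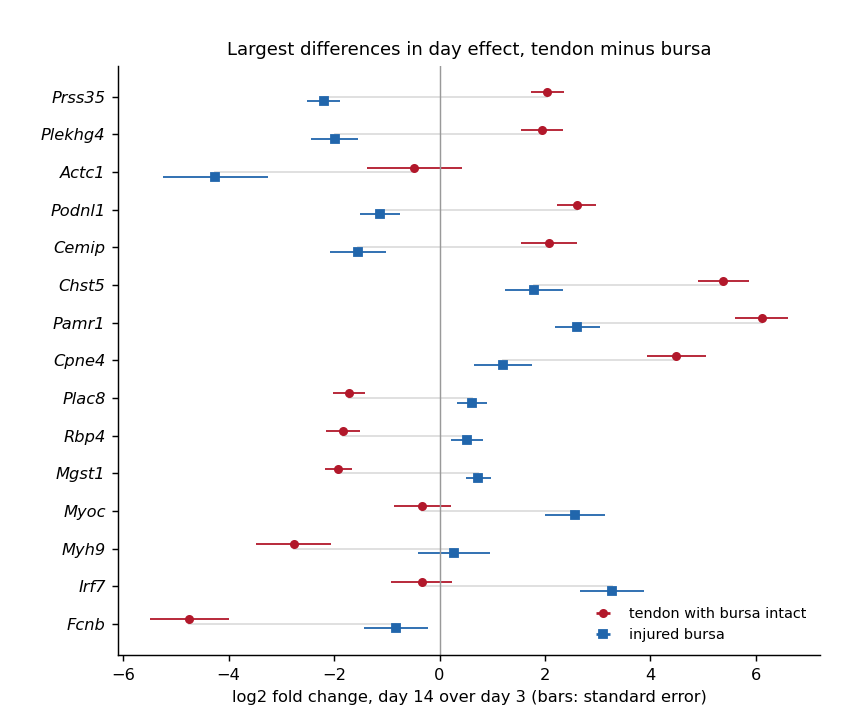
Log2 fold change of day 14 over day 3 in tendon with intact bursa (circles) and in injured bursa (squares) for 15 genes named for the size of the difference, with bars of ± 1 standard error. Prss35, Plekhg4, Podnl1 and Cemip lie above 0 in tendon and below 0 in bursa, and Irf7 and Myoc lie near 0 in tendon and above 0 in bursa.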

How the data were processed

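Poly-A RNA of rat tendon and bursa was sequenced by the authors. The deposited transcript table holds kallisto estimated counts as whole numbers, per the submitters' processing notes (bcl2fastq 2.19, kallisto 0.44.0). Neither a build nor an annotation is named in the sources used here. The authors also deposited 11 DESeq2 tables per gene symbol, with log2 fold changes and their errors, p-values and a mean signal of normalised counts, per the file headers. The deposited count table has transcript identifiers only and the gene tables symbols only, so 12786 of 23747 symbols were paired with transcripts by their mean values in the tables. The named transcripts hold 87.0% of the counts (84.9 to 93.7% per library), and 19 altered decoy symbols were paired (0.149%). The counts for each list leave out its unpaired members. Where the text gives a value for such a member, it is from the authors' deposited table, and not all of them are given.

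Counts were rounded, summed per symbol and scaled by TMM, and low features were removed with filterByExpr. The day 14 and day 3 groups (6 libraries each) were compared with edgeR 4.0.16 (robust quasi-likelihood, R 4.3.3) in a fit of all 29 tendon libraries, and against bursa in a fit of 46 libraries, each with group as the sole term. Adjusted p-values are Benjamini-Hochberg over all features. DESeq2 1.42.0 (an alternative), other scalings and filters, fewer libraries, the muscle level as a covariate and leaving out single libraries were also run. The fit was tested on simulated counts. Correlations of log2 CPM within a group were 0.930 to 0.959 and no 2 libraries were duplicates.

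The text names the 15 highest and 15 lowest log2 fold changes among called genes with a symbol, a mean of at least 10 CPM and no overlap between the days, members of 44 lists, and the 8 greatest differences each way against bursa, of which 1 is not reported here. The comparison, these lists and the members named were chosen with earlier results of these data known.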

Additional observations from a re-analysis of the deposited data

Results flagged for a closer look

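For genes selected for the text from the named and listed ones, 390 groups of 6 libraries were examined for a library that stood apart. By Dixon's criterion at the 95% level 21 groups (5.38%) held one, and chance alone marks about 1 in 20 groups. The other listed genes were not examined in this way. No library led these cases in every gene. Day 14 replicate 1 had 7697 CPM of Bgn against 4648 to 5647 CPM in the other 5 and 31.3 CPM of Arntl against 10.5 to 16.9 CPM. Day 14 replicate 3 had 268 CPM of Cilp2 against 362 to 417 CPM in the other 5. Day 14 replicate 4 had 0.252 CPM of Mymx against 0 to 0.0919 CPM in the other 5 and 586 CPM of Pamr1 against 364 to 436 CPM. Day 14 replicate 5 had 36.9 CPM of Folr2 against 26.5 to 30.4 CPM in the other 5 and 6.87 CPM of Arg1 against 1.86 to 3.71 CPM. The same library had 48.5 CPM of Col2a1 against 4.18 to 9.77 CPM. Day 14 replicate 6 had 768 CPM of Tagln against 464 to 574 CPM in the other 5 and 118 CPM of Fkbp5 against 30.4 to 57.7 CPM. The same library had 11.2 CPM of Mt1 against 3.83 to 6.36 CPM. Day 3 replicate 1 had 9.04 CPM of Hp against 2.42 to 4.45 CPM in the other 5 and 5.54 CPM of Nog against 1.86 to 3.2 CPM. The same library had 147 CPM of Myh3 against 31.1 to 55.9 CPM and 33.1 CPM of Actc1 against 2.83 to 12.8 CPM. Day 3 replicate 4 had 15.2 CPM of Col2a1 against 0.0661 to 4.15 CPM in the other 5. Day 3 replicate 5 had 558 CPM of Ldha against 679 to 748 CPM in the other 5 and 26.7 CPM of Angptl7 against 4.97 to 10.2 CPM. The same library had 44.8 CPM of Per2 against 15.7 to 25.3 CPM. Day 3 replicate 6 had 546 CPM of RT1-Da against 292 to 382 CPM in the other 5 and 3.44 CPM of Cd3e against 0.875 to 1.76 CPM.

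By edgeR's test of the difference itself with Benjamini-Hochberg adjustment, the day effect differed between tendon with intact bursa and injured bursa for 15 genes named by size. The log2 difference, tendon minus bursa, was 4.24 for Prss35, 3.93 for Plekhg4, 3.78 for Actc1, 3.73 for Podnl1, 3.63 for Cemip, 3.59 for Chst5, 3.49 for Pamr1 and 3.28 for Cpne4. It was -3.92 for Fcnb, -3.61 for Irf7, -3.04 for Myh9, -2.90 for Myoc, -2.65 for Mgst1, -2.35 for Rbp4 and -2.34 for Plac8. The differences for Actc1, Fcnb and Myh9 lost their call when single libraries were left out, as given with the comparison.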

How the results depend on the processing

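Against 7156 changed features as reported for day 14 against day 3, the other settings gave 6886 with no filter on low counts to 8008 with the muscle level as a covariate, and leaving out single libraries gave 6617 to 7101 (3264 to 3532 higher, 3344 to 3569 lower). Between 6458 and 7116 calls were shared with the 7156, and 0 shared calls changed sign. The difference between intact and removed bursa had 0 calls in every setting run. The difference between tendon and bursa gave 2935 calls as reported and 2268 to 3174 without single libraries (1250 to 1714 higher, 1018 to 1460 lower), the fewest without day 14 bursa replicate 6. Its 1543 higher calls became 2453 in a fit of the 24 libraries compared, and the cause was not tested.

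The labels number replicates alike in each group, and how far same-numbered libraries deviate together differed between groups. Correlations of their deviations were -0.0502 to 0.121 between day 14 and day 3 intact tendons (over 0.1 in 1 of 6). Intact and removed tendons gave 0.0556 to 0.208 at day 14 (over 0.1 in 5 of 6, each of the 6 closest to its own number) and 0.0445 to 0.333 at day 3 (2 of 6). Tendon and bursa gave 0.0368 to 0.202 at day 14 (4 of 6) and 0.125 to 0.222 at day 3 (6 of 6). Each comparison rests on at least 1 set of pairs that were not all over 0.1, and no label ties a number to a rat, so the fits reported have no block, and a link within a day between same-numbered tissues is a hint from the data. Between the days, 7326 features changed in a fit that took the number as a block. With the block within day, 0 differed between intact and removed bursa (712 at an unadjusted p under 0.05), and the higher calls of tendon against bursa were 2341.

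Low counts limit the lymphoid, mast cell and neutrophil lists, whose members were mostly under a few CPM.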
